A study of Mus musculus with 2 samples.

Results

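The immediate early and stress transcription genes described here are Nr4a1, Egr1, Jun, Atf3, Btg2, Gadd45g, Dusp6, Nupr1 and Dnajb9. They were taken from the rows of the deposited table whose platform annotation gives exactly 1 gene symbol, and all 9 genes had a value, in 10 rows, among 1750 named genes. The genes were chosen with their difference between the pools known, so their values are a description and no test was made of them. RNA came from liver of wild-type C57BL/6J mice, a common inbred strain, aged 6 to 10 weeks at surgery. The parenteral nutrition (PN) mice were infused with nutrients through a jugular vein catheter for 8 days, without food in the cage. The saline mice were infused with saline over the same days and kept their food. Mice of both groups had been catheterised on day 1, had received saline from day 2 and were killed on day 11. Each group was 1 pool of RNA from 3 mice on 1 array, so pooling removed the spread between mice, and the infusate and the removal of food differed together.

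Immediate early genes are transcribed within minutes of a stimulus such as a growth factor, a hormone acting through cyclic AMP, or a stress, because the factors that switch them on are already present in the cell. Many encode transcription factors that drive a later wave of genes, and others encode inhibitors that end the signal. Stress response genes of the ATF4 and XBP1 branches are switched on when amino acids run short or when unfolded protein gathers in the endoplasmic reticulum (ER), which in the liver carries a heavy load of secreted proteins.

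Levels are RMA values on the log2 scale, and a difference is the PN level minus the saline level. A fold is 2 raised to that difference. The authors deposited only rows past a 1.5-fold cutoff, and the smallest absolute difference in the 5082 rows was 0.585. A gene without a named value may have differed by less, may carry no name here, or may not have been measured. The row medians were 4.36 in the PN pool and 4.37 in the saline pool. None of the 10 hepatocyte markers listed, such as Alb and Ttr, had a named value, so the labelled tissue could not be checked on them in this table.

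All 9 genes were higher in the PN pool, where 50.2% of the named genes were higher. Of these, 7 were at least 2-fold higher, against 7.6% of named genes, and 4 were at least 3-fold higher, against 1.03%. Their median difference was 1.46 (2.75-fold), beside 0.59 over all named genes, a value that sits at the edge of the gap left by the cutoff, and 0.73 over the 878 named genes that were higher. Since the genes were picked on this contrast, these counts hold no information beyond the choice. Differences ran from 0.63 for Dnajb9, just inside the cutoff of 0.585, to 2.37 for Nr4a1. Chemosensory receptor genes, which liver is not known for, gave a background level: over the 133 of them with a value, the brighter of each gene's levels had a median of 3.26. No level of the 9 genes lay under it, though it is a median and other receptor genes lay above it. Differences of the receptor genes reached 1.27 for Olfr1269 and -1.41 for Vmn1r148, beside 1.21 for Atf3 and 1.15 for Nupr1.

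**Figure D1:**
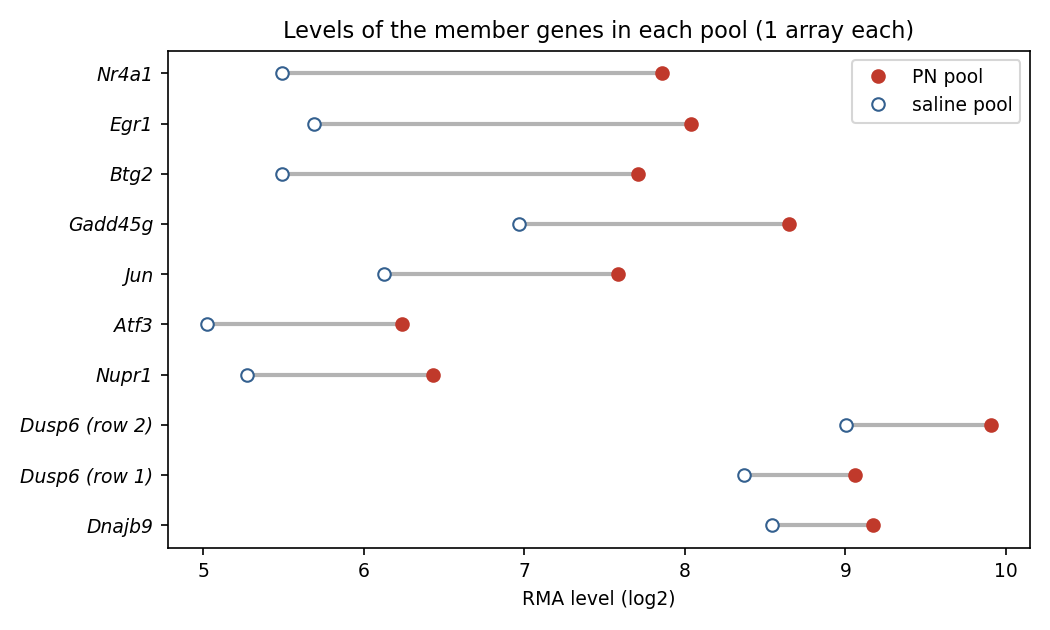
RMA level on the log2 scale for each probe set row of the 9 genes, with the PN pool as filled points and the saline pool as open points, 1 array each and hence without error bars. The PN point lies to the right of the saline point in all 10 rows, and the gap narrows from 2.37 for Nr4a1 at the top to 0.63 for Dnajb9 at the bottom.

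The transcription factor genes Nr4a1 and Egr1 had the largest differences of the 9. Nr4a1 encodes NUR77, an orphan nuclear receptor that promotes gluconeogenic gene expression in mouse liver. Its level was 7.86 in the PN pool and 5.49 in the saline pool, a difference of 2.37 (5.16-fold) that ranked 9 among the 1750 named genes. Egr1 encodes a zinc finger factor that is induced through ERK kinase signalling. Its level was 8.04 in the PN pool and 5.69 in the saline pool, a difference of 2.35 (5.10-fold) at rank 11. The ranks of both lay within the top 20 of the named genes.

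Among the 3 NR4A genes Nr4a1 alone had a named value, and among the 4 EGR genes Egr1 alone had one. The stretch upstream of Nr4a1 is shown because it holds 4 copies of TGACG, the core of the cAMP response element (CRE), the site bound by CREB. Capitals mark the core, which here reads CGTCA because each copy lies on the opposite strand. The sequence is from RefSeq on build GRCm38.p6, chr15:101266605-101266818, plus strand, and runs from 241 to 28 bases before the gene start.
Nr4a1: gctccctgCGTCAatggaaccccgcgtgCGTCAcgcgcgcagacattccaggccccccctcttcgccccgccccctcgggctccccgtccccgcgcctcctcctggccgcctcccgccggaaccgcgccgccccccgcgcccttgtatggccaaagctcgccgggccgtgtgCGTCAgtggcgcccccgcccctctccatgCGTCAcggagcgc
At least 1 such core was found on either strand in the 250 bases upstream of 17.8% of the 32851 gene starts in the promoter table, and at least 4 in 0.137% of them. The core is part of the full CRE and of the unfolded protein response element TGACGTGG, and these counts include cores inside either. It was found upstream of 4 of the 8 genes with a promoter entry, Nr4a1, Btg2, Atf3 and Dnajb9. Egr1 had no promoter entry and was not searched. An EGR site, GCGGGGGCG, was also found upstream of Nr4a1, starting 60 bases before the gene start, and was present in 2.57% of the promoters.

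Jun and Atf3 encode basic leucine zipper factors. Jun is a subunit of the AP-1 dimer and is needed for normal liver regeneration in the mouse. The level of Jun was 7.58 in the PN pool and 6.13 in the saline pool, a difference of 1.46 (2.75-fold) at rank 35. Atf3 is induced by many stresses, in part through ATF4. The level of Atf3 was 6.24 in the PN pool and 5.02 in the saline pool, a difference of 1.21 (2.32-fold) at rank 65. The Jun difference was the median of the 9.

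Of the 3 JUN genes, Jun alone had a named value. Of the 4 FOS genes, which encode partners of Jun in AP-1, Fosb alone had one, with 4.59 in the PN pool and 3.88 in the saline pool. Fos itself had no named value. The stretch upstream of Jun is shown for the TGACATCA site (capitals), a variant of the AP-1 site in its own promoter. It is from chr4:95052230-95052297, minus strand, 75 to 8 bases before the gene start.
Jun: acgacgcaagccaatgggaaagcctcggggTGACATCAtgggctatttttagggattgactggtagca
This variant was found upstream of 2.93% of the promoters in the table. The canonical AP-1 site TGACTCA, present in 4.46% of promoters, was not found in the 250 bases upstream of any of the 8 genes with a promoter entry.

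**Figure D2:**
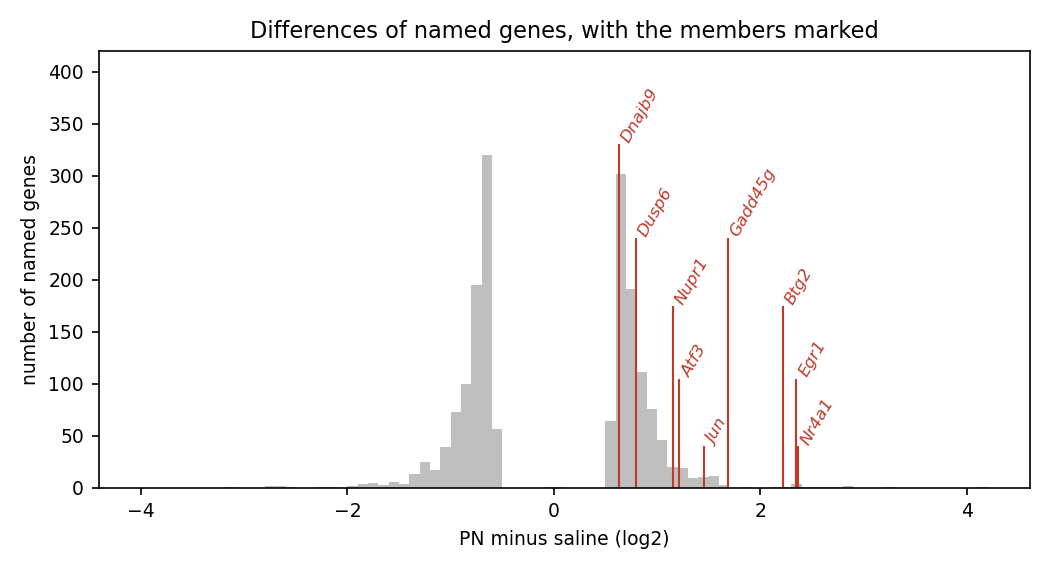
Histogram of PN minus saline on the log2 scale for the 1750 named genes (vertical axis, number of genes per bin of 0.1), with the 9 genes marked by red lines whose heights serve only to separate the names. The middle is nearly empty because of the cutoff of the deposited table and holds 3 genes, each the mean of several rows, and 7 of the 9 lines lie at or beyond 1, a region that holds 133 named genes.

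Btg2 and Gadd45g, of families linked to growth arrest, are described next. Btg2 encodes an antiproliferative protein that binds the CCR4-NOT deadenylase. Its level was 7.71 in the PN pool and 5.49 in the saline pool, a difference of 2.22 (4.64-fold) at rank 13. Gadd45g encodes a stress-induced activator of the kinase cascade that leads to p38 and JNK. Its level was 8.65 in the PN pool and 6.97 in the saline pool, a difference of 1.68 (3.21-fold) at rank 17. With Nr4a1 and Egr1, these made 4 of the 9 genes within the top 20 of the named genes.

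Dusp6 encodes a cytoplasmic phosphatase that removes the activating phosphates from ERK and is itself induced by ERK. It was measured by a pair of rows, with levels of 9.90 and 9.06 in the PN pool and of 9.003 and 8.37 in the saline pool. The differences were 0.90 (1.87-fold) and 0.69 (1.61-fold), in the same direction. Their mean was 0.80 (1.74-fold), at rank 327. Of the 9 genes, Dusp6 and Dnajb9 alone were under 2-fold.

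The stretch upstream of Btg2 is shown because it holds the full CRE, TGACGTCA (capitals), which was found upstream of 1.55% of the promoters in the table and of no other gene among the 8. It is from chr1:134079294-134079341, minus strand, 186 to 139 bases before the gene start. This palindrome contains the TGACG core on each strand.
Btg2: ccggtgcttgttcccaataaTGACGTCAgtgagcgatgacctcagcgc

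Among the stress genes, Nupr1 encodes a small chromatin-associated protein induced by amino acid shortage and ER stress. Its level was 6.43 in the PN pool and 5.28 in the saline pool, a difference of 1.15 (2.23-fold) at rank 75. Dnajb9 encodes ERdj4, an ER-resident cochaperone of the chaperone BiP and a target of XBP1. Its level was 9.17 in the PN pool and 8.54 in the saline pool, a difference of 0.63 (1.55-fold) at rank 722. A larger positive difference than that of Dnajb9 was seen for 41.2% of the named genes.

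The composite site bound by C/EBP and ATF proteins, TGATGNAA, was found upstream of Atf3, Nupr1 and Gadd45g, 3 of the 8 genes, against 3.45% of the 32851 promoters. The stretches are shown because the site had the same letters in each and began 110, 110 and 101 bases before the gene start. Capitals mark the site, which lies on the opposite strand and so reads TTGCATCA. The stretches are from chr1:191183411-191183468 on the minus strand for Atf3, chr7:126625548-126625605 on the minus strand for Nupr1 and chr13:51846549-51846606 on the plus strand for Gadd45g.
Atf3: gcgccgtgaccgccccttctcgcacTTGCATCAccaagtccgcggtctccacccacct
Nupr1: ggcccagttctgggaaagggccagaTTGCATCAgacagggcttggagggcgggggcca
Gadd45g: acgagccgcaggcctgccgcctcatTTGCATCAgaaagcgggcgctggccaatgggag
The unfolded protein response element, in 0.563% of promoters, was not found within these 250 bases for Dnajb9 or the others. The ER stress element, CCAAT followed after 9 bases by CCACG, in 0.113% of promoters, was not found there either. Nor was the CArG box bound by serum response factor, in 1.47%. These absences do not cover Egr1, which had no promoter entry. In all, 17 motifs were searched and 8 were found upstream of none of the 8 genes, the others of these being the NR4A monomer site AAAGGTCA, the EGR variant GCGTGGGCG, the second ER stress element and the TATA variant TATATAA.

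More general promoter motifs were spread over the genes. The E-box CACGTG was found upstream of Gadd45g, Nupr1 and Dnajb9, against 6.02% of promoters. The CCAAT box was found upstream of Btg2, Gadd45g, Jun, Dusp6 and Dnajb9, against 33.8% of promoters. The TATA box TATAAA was found upstream of Gadd45g alone, 27 bases before the start, against 12.4%. The ETS-like site GGAAGT was found upstream of Dnajb9 alone, against 19.7%. Every match is a description of the letters, and no binding was measured.

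**Figure D3:**
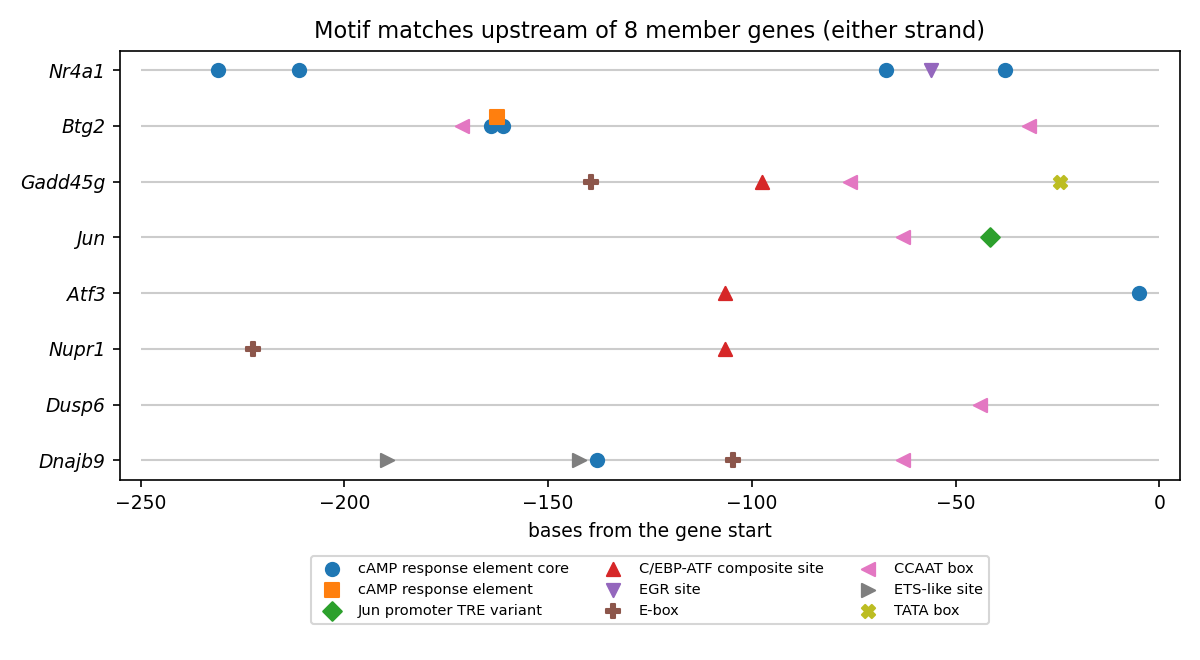
Position of motif matches on either strand in the 250 bases upstream of the 8 genes with a RefSeq promoter entry, in bases from the gene start, with 1 line per gene and a symbol per motif. Nr4a1 holds 4 CRE cores, Btg2 the full CRE, and Atf3, Nupr1 and Gadd45g each hold a C/EBP-ATF composite site that begins 110 or 101 bases before the start.

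The wider list of immediate early regulators held 43 genes, of which 16 had a named value, 14 higher and 2 lower in the PN pool, with a median difference of 0.87. Of all named genes, 49.8% were lower. Apart from the genes above, 11 had a value, 9 higher and 2 lower, with a median of 0.70. Plk3, a polo-like kinase of the stress response, had 9.02 in the PN pool and 7.73 in the saline pool (2.45-fold higher). The growth regulator gene Myc had 6.91 in the PN pool and 5.68 in the saline pool (2.34-fold higher). Btg1, a relative of Btg2, was 1.57-fold higher, as were Ier2 at 1.62-fold and the small MAF factor gene Maff at 1.52-fold. Klf10, a repressor induced by TGF-beta, was 1.63-fold lower, with 5.30 in the PN pool and 6.00 in the saline pool. Plk2, named after its value was seen, was 1.52-fold lower, with 5.38 in the PN pool and 5.98 in the saline pool. The differences of these 11 genes were thus of both signs and at most 2.45-fold in size.

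Of 29 genes of ERK feedback and ERK targets, 4 had a named value. These 4 were higher, beside 50.2% of all named genes, with a median of 0.80. Besides Dusp6 these were Ccnd1, cyclin D1, with 7.35 in the PN pool and 6.52 in the saline pool (1.78-fold), the phosphatase gene Dusp1 with 8.02 in the PN pool and 7.36 in the saline pool (1.58-fold), and the inhibitor gene Spred3 with 4.58 in the PN pool and 3.77 in the saline pool (1.75-fold). None of the 4 reached 2-fold. Of 29 growth factor and receptor genes upstream of ERK, 4 had a value, 2 higher and 2 lower. The receptor genes Erbb2 and Erbb3 were 1.77-fold and 1.50-fold lower. The receptor gene Pdgfra was 1.93-fold higher and the hormone gene Fgf21 1.85-fold higher. The EGF family ligands listed had no named value.

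Of 26 genes of the GADD45 and BTG/TOB families and of p53-linked growth arrest, 5 had a value, 4 higher and 1 lower, with a median of 1.25. The share of higher genes over all named genes was 50.2%. Gadd45g alone of the 3 GADD45 genes had a value, and Btg1 and Btg2 were 2 of 6 BTG/TOB genes. Trp53inp1, a p53-induced autophagy factor, had 9.25 in the PN pool and 8.00 in the saline pool (2.38-fold higher). Cdkn1a, the cell cycle inhibitor p21, had 6.90 in the PN pool and 8.44 in the saline pool, 2.91-fold lower. Cdkn1a was thus opposite in sign to Btg2 and Gadd45g.

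Of 32 genes of the integrated stress response, the ATF4 branch, 4 had a value. These 4 were higher, beside 50.2% of all named genes, with a median of 1.14. Beside Atf3 and Nupr1, Ddit4, an inhibitor of mTORC1 signalling, had 7.27 in the PN pool and 6.14 in the saline pool (2.19-fold), and Fgf21 had 5.87 in the PN pool and 4.98 in the saline pool. The other 28 had no named value, among them Atf4, Ddit3, Trib3 and Asns. Genes of this response outside the list went both ways, with Slc38a2 at a difference of 1.07 and Inhbe at -1.16. Of 37 genes listed for the unfolded protein response, Dnajb9 alone had a named value, and Hspa5, which encodes BiP, and Xbp1 had none. The list leaves out other genes of this response, such as Ficd at a difference of 0.97 and Mbtps2 at -0.72. None of 15 cytosolic heat shock genes listed had a named value.

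Of 20 liver genes responsive to cyclic AMP and CREB, 9 had a value and were higher, with a median of 1.18, and 6 of these were at least 2-fold higher. Over all named genes, 50.2% were higher and 7.6% at least 2-fold higher. Igfbp1, an insulin-repressed binding protein gene, had 11.5 in the PN pool and 9.95 in the saline pool (2.88-fold). The kinase gene Sik1 had 7.71 in the PN pool and 6.24 in the saline pool (2.78-fold). The coactivator gene Ppargc1a was 2.38-fold, the glucose-6-phosphatase gene G6pc 2.26-fold and the insulin receptor substrate gene Irs2 2.08-fold higher. Dusp1, given above, was 1.58-fold higher, and the list genes with a value left unnamed here were also under 2-fold. Nr4a1 is a member of this list too and had its largest difference. Counted once each, 27 of 208 genes of the 8 lists apart from the 9 had a named value, 22 higher and 5 lower, with a median of 0.83. These lists were chosen with earlier results known, and the 181 genes without a named value keep these counts from describing whole pathways.

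**Figure D4:**
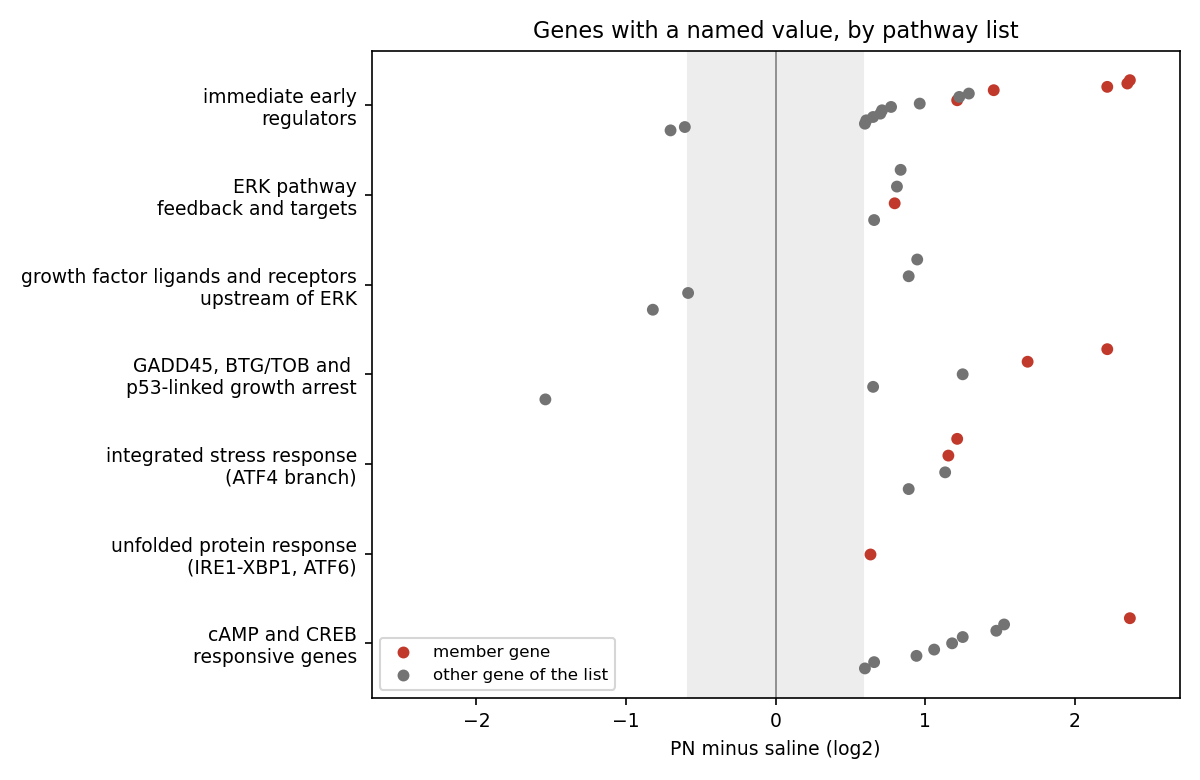
PN minus saline on the log2 scale for every gene with a named value in 7 pathway lists, with the 9 genes in red and other list genes in grey. The shaded band is the range removed by the 1.5-fold cutoff, vertical offsets only separate points, and a gene on several lists appears in each. The 5 genes to the left of the band are Klf10, Plk2, Erbb2, Erbb3 and Cdkn1a.

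The listed immune cell markers that had a named value were also higher in the PN pool, where 50.2% of all named genes were higher. The lists were chosen with earlier results known and leave out other genes of immune cells. Immediate early genes are expressed by such cells as well as by hepatocytes, and in bulk RNA more cells of a type and more RNA per cell cannot be told apart. Of 25 macrophage and dendritic cell markers, 11 carried a named value, each of them higher in the PN pool, and their median difference was 0.81. Their summed unlogged level was 2570 in the PN pool and 1486 in the saline pool, a ratio of 1.73. The sum holds only markers past the 1.5-fold cutoff, all of them higher, so its ratio had to exceed 1.5. The Kupffer cell marker Clec4f was 1.53-fold, the complement receptor gene Vsig4 1.55-fold and the lysosomal marker Cd68 1.65-fold higher. Marco, named after its value was seen, was 5.15-fold higher, close in size to Nr4a1. The 14 markers without a named value included Adgre1, Csf1r and Timd4.

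Of 11 neutrophil markers 3 had a value and were higher, S100a9 at 2.18-fold, S100a8 at 2.04-fold and Csf3r at 1.52-fold, with a summed unlogged level of 162 in the PN pool and 81.5 in the saline pool. The 17 markers of lymphocytes and NK cells included 5 with a value, each higher in the PN pool, between 1.52-fold for Klrb1c and 2.09-fold for Ccl5, with Cd3e, Nkg7 and Gzma between them. Their sum was 242 in the PN pool and 134 in the saline pool. The neutrophil and lymphocyte sums, too, hold only markers past the cutoff and do not measure a change in cell number. Lymphocyte genes outside the list, named after their values were seen, went both ways. Il7r differed by -1.20, Stat4 by -0.85 and Gimap1 by -0.84, but Zap70 by 0.94, Cd22 by 0.77 and Gimap5 by 0.73. The 12 endothelial markers were without a named value, and of 12 stellate cell and fibroblast markers Lum alone had one, at 1.91-fold higher. Of 9 cholangiocyte markers 3 had a value, Prom1 at a difference of 1.06, Epcam at -0.87 and Tspan8 at -0.59. Car1 was 1.78-fold lower and Klf1 1.68-fold lower, the 2 erythroid markers with a value among 9. Prom1 alone of the listed markers with a value had a level under the background of 3.26, at 3.21 in the saline pool. Its difference is therefore uncertain. The part of these cells in the levels of the 9 genes was not tested.

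**Figure D5:**
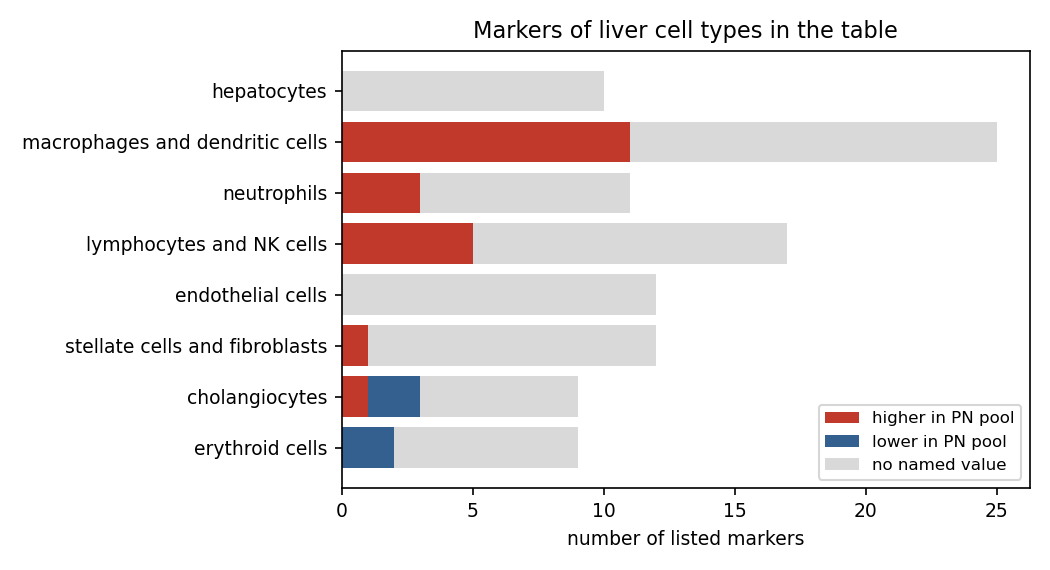
Number of listed markers per liver cell type that were higher in the PN pool (red), lower in the PN pool (blue) or had no named value (grey). All 11 macrophage and dendritic cell, 3 neutrophil and 5 lymphocyte and NK cell markers with a value are red, and hepatocyte and endothelial markers are grey throughout.

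For each of the 9 genes the named gene outside the 9 with the most similar pair of levels was found, as the distance over the 2 arrays on the log2 scale. The closest pairs were Dnajb9 with St3gal5, at a distance of 0.0160, Dusp6 with Steap4, at 0.0393, and Nupr1 with Tctex1d4, at 0.0659. St3gal5 was 1.55-fold, Steap4 1.67-fold and Tctex1d4 2.18-fold higher in the PN pool. With 2 arrays such likeness covers only a pair of numbers per gene.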

How the data were processed

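Liver RNA of 1 PN pool and 1 saline pool was measured on 1 array each with biotin-labelled cDNA. The deposited values are log2 levels per probe set, which the authors made with RMA in Affymetrix Expression Console 1.4.0.38, per the submitters' processing notes. Per the series' design text, rows were kept by a 1.5-fold cutoff. The array's genome build is not given in the sources used here. The platform annotation gave 1 gene symbol to 1779 of the 5082 rows, several symbols to 161 and no symbol to 3142. Rows of 1 symbol were averaged per gene, giving 1750 named genes.

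Groups came from the mouse group in the labels. With 1 array per group no test, p-value or error could be computed, and the number of arrays limits the precision. The 9 genes, the 8 pathway lists, the 8 marker lists and the 17 motifs were chosen with earlier results of these data known. For the lists, up to 6 genes each besides the 9 are open to naming, those with the highest level first. Sequences are RefSeq's, on GRCm38.p6. The promoter table held 8 of the 9 genes, not Egr1, and motifs were searched as exact letters on both strands of the 250 bases upstream. Stretches shown were picked for holding a match. Python 3.11.15, pandas 2.3.3 and numpy 2.4.6 were used, and the code that averages rows and counts directions was checked on a simulated table with known answers. Alternatives were centring, quantile normalization, the background level, the fold, a level filter, rows of several symbols and the choice of row.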

Additional observations from a re-analysis of the deposited data

How the results depend on the processing

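The count of 9 genes higher in the PN pool was 9 with the arrays centred on equal medians, with quantile normalization over the table, with rows of several symbols counted and among genes of at least median level. No row of several symbols held any of the 9 genes, so counting such rows could not alter the result. The count at 2-fold, 7, was also 7 under both scalings and with the background level. It was 4 at 3-fold and 9 at 1.5-fold, which is the cutoff of the table. The median difference of 1.46 was 1.48 under either scaling. Over 28 recomputed differences of single genes, 28 kept their sign. The largest shift, 0.11, was that of Dusp6, at 0.90 from its row of higher level, and Dnajb9 was at 0.58 under quantile normalization, under the cutoff of the table. Neither scaling changed the sign of any of the 61 list genes with a value. The kept signs carry little information, since every row differed by at least 0.585 and the shifts of the 9 genes were at most 0.11. No paired analysis was possible because each group was 1 array. The arrays could not be left out in turn for the same reason. Each level of the 9 genes lay above the background level, so that level altered no difference, and what limits the table is the cutoff, which removes every smaller difference.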

Other observations

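A row shared by Hspa8, a constitutive cytosolic chaperone gene of the heat shock list, and the small RNA gene Snord14e lies within no gene comparison. Its level was 9.11 in the PN pool and 9.73 in the saline pool, a difference of -0.62. Likewise, a row shared by Alas2, an erythroid heme synthesis gene, and Apex2 had 6.81 in the PN pool and 7.60 in the saline pool, a difference of -0.79. Noct, a clock-controlled deadenylase family gene, had the pair of levels most like those of both Btg2 and Nr4a1 among named genes outside the 9, at 7.57 in the PN pool and 5.24 in the saline pool (5.02-fold higher), with distances of 0.29 to Btg2 and 0.38 to Nr4a1 on the log2 scale. Coq10b, a coenzyme Q binding protein gene, was the most like Jun and Egr1 among the same genes, at 7.68 in the PN pool and 6.16 in the saline pool, with distances of 0.10 and 0.59. These genes are named after their values were seen.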
